A study of Mus musculus with 2 samples.

Results

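The 41 genes described here are interferon-induced genes. They were taken as every gene spot on the arrays whose gene name equals one of 41 listed symbols, from Ifit1 and Isg15 to the guanylate-binding proteins. All 41 were on the arrays, among 30011 gene names, with 59 probes of 4 spots each. The data are mouse ureters taken at stage E15.5 and grown for 6 days on membranes. The Fgfr1/2cDKO ureters carried Cre at a Tbx18 allele and floxed alleles of both Fgfr1 and Fgfr2 (Tbx18cre/+;Fgfr1fl/fl;Fgfr2fl/fl), so that recombination is driven in the Tbx18-expressing mesenchyme and its descendants. The control ureters carried at least 1 floxed allele of each receptor gene (Fgfr1fl/?;Fgfr2fl/?), and no Cre allele is listed for them. All were of the NMRI strain.

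There were 2 two-colour arrays, each holding 1 Fgfr1/2cDKO RNA beside 1 control RNA. Array 1 is labelled male and had the mutant RNA in Cy5. Array 2 is labelled female and had it in Cy3. Which of replicate, sex and dye a difference between the arrays goes with cannot be told apart, and loss of the receptors cannot be told apart from Cre at the Tbx18 locus. The labels do not say whether an RNA came from 1 embryo or from several pooled ones, so the p-values reflect the scatter of these RNAs alone, and that scatter may be technical. Ratios are log2 of Fgfr1/2cDKO over control within an array, and a mean is given with its SD over the 2 arrays. A gene was called changed at a limma adjusted p below 0.05. Signals of single RNAs are log2 normalised intensities of the separate channels, which are open to dye bias.

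Interferons are secreted proteins that warn cells of viruses and other microbes. Type I interferons bind the receptor chains IFNAR1 and IFNAR2, whose kinases JAK1 and TYK2 phosphorylate transcription factors such as STAT2. The complex ISGF3, which includes STAT2 and IRF9, binds the interferon-stimulated response element in the promoters of its target genes, while interferon gamma acts through the GAS element. Epithelial, stromal and immune cells can all mount this response, and many tissues keep a low level of it without infection. Whether fewer cells or less RNA per cell lies behind a lower value cannot be told apart in bulk RNA.

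The RefSeq promoters (GRCm38.p6) held entries for 29 of the 41 genes, as 250 bases before to 50 after each start. The core of the interferon-stimulated response element, searched on both strands as GAAA, any 2 bases and GAAA again, stood in the promoters of 18 of the 29 genes (62.1%), against 3.99% of all 27025 genes with an entry. The GAS core TTCNNNGAA, which reads alike on both strands, stood in 6 of the 29 genes (20.7%), against 9.55% of all genes. A match is a stretch of letters and was not tested for binding. The stretches before the start are shown 5′ to 3′ on the gene's own strand, because the core recurs across these promoters. Capitals mark the core, or overlapping copies of it, and a core that starts with TTTC is the same core on the opposite strand.
Bst2, chr8:71537581-71537608, minus strand: ttccagGAAAATGAAACTGAAAggctgc
Cxcl10, chr5:92349087-92349108, minus strand: gctttgGAAAGTGAAActtacc
Gbp2, chr3:142620598-142620619, plus strand: ttttagTTTCACTTTCactgtc
Gbp3, chr3:142559993-142560020, plus strand: acacagTTTCAGTTTCTATTTCccagat
Ifi203, chr1:173942512-173942533, minus strand: gctgggGAAATCGAAAgctatg
Ifi205, chr1:174031874-174031895, minus strand: gccaggGAAATTGAAAgctatg
Ifit1, chr19:34640779-34640800, plus strand: cttcagTTTCACTTTCcagtct
Ifit1, chr19:34640798-34640819, plus strand: tctcagTTTCAGTTTCtcactg
Ifit3, chr19:34583367-34583388, plus strand: ggtaagTTTCACTTTCctcttc
Ifit3, chr19:34583401-34583422, plus strand: agtctgTTTCAGTTTCtacttt
Igtp, chr11:58199516-58199537, plus strand: ggaactGAAACTGAAAgctgtt
Irgm1, chr11:48871429-48871456, minus strand: tttcaaGAAATAGAAACCGAAActgatt
Irgm2, chr11:58214907-58214928, plus strand: ggaactGAAACTGAAAgctgtt
Isg15, chr4:156200869-156200902, minus strand: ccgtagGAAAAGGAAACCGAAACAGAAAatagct
Oas1a, chr5:120907526-120907551, minus strand: tctcggGAAATGGAAACTGAAAatct
Oas3, chr5:120777719-120777740, minus strand: ggaggaGAAAACGAAAgtgaag
Rsad2, chr12:26456557-26456578, minus strand: tccaacTTTCATTTTCagaaaa
Stat2, chr10:128270270-128270291, plus strand: ccctggTTTCAGTTTCctttcc
The core stood 3 times in an overlapping run in Isg15, and 2 separate copies each lay before the starts of Ifit1 and Ifit3. The stretches of Igtp and Irgm2 were identical over all 22 bases. In Ddx58 and Ifih1 the only match lay after the start, in the first transcribed bases. Of the stretches shown, that of Oas1a had its first core base nearest the start, 20 bases before it, and that of Stat2 farthest, 222 bases before it.

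**Figure D1:**
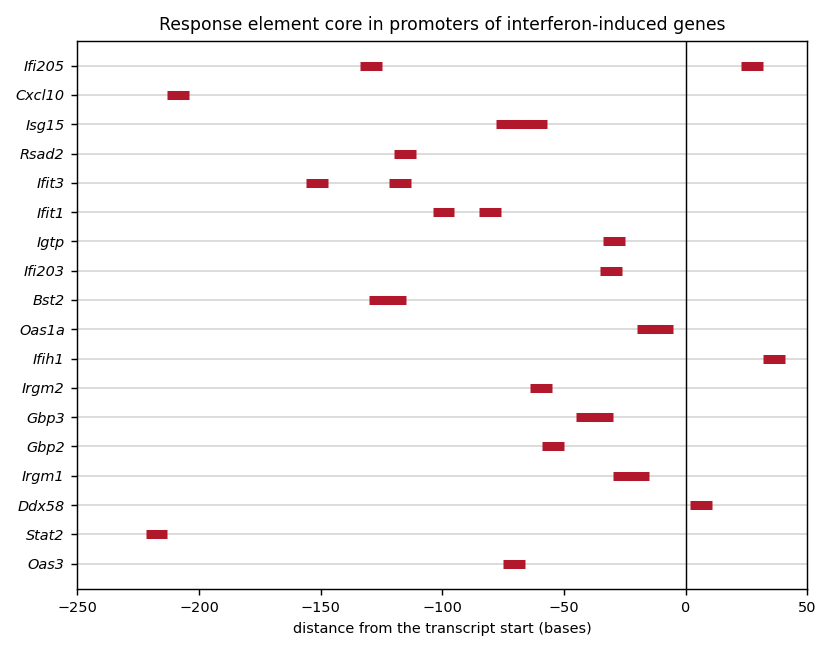
Positions of the response element core in the promoters of the 18 interferon-induced genes that hold it, as bases from the transcription start (vertical line), 1 gene per line, with overlapping matches drawn as 1 block. The core lies before the start in all but Ddx58 and Ifih1, and Ifi205 has a copy on either side.

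Of the 41 genes, 40 passed the filter on dim spots and were tested, each of them well above background in all 4 RNAs. Oas3 was well above background on only 1 array in each genotype and was not tested. Its ratios were 0.10 on array 1 and 0.05 on array 2. Across the 40 genes the median log2 ratio of Fgfr1/2cDKO over control was -0.46, against -0.02 over all 22070 genes tested. The median was -0.23 on array 1 and -0.71 on array 2, against -0.03 and -0.0027 over all genes. Ratios ran from -1.38 (Ifi205) to 0.25 (Gbp6). Summed over the 40 genes, the normalised signal was 128000 and 112600 in Fgfr1/2cDKO RNA 1 and 2, against 161400 and 157000 in control RNA 1 and 2. Both mutant sums lay below both control sums. Bright genes weigh most in these sums, and the brightest here, Ifi27 and Gbp2, were not called.

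At an adjusted p below 0.05, 7 of the 40 genes were lower in Fgfr1/2cDKO ureters and 0 were higher, where 2.03% of all genes were called lower and 1.76% higher (limma, 836 called in all, 3.79%). The 7 were Ifi205, Isg15, Ifi44, Igtp, Rtp4, Ifit2 and Bst2. At an unadjusted p below 0.05 there were 26 lower genes and 0 higher ones, against 11.4% of all genes lower. Ratios were below 0 on both arrays for 32 of 40 genes (80%), against 36% of all genes. Both Fgfr1/2cDKO signals lay below both control signals in 29 genes (72.5%), against 23.6% of all genes. The number of calls depends on the processing. None of the 40 was called from Agilent's processed signals, with centring on the median alone, with a trended robust variance or in the separate channels, and 17 were called after plain background subtraction, all lower.

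**Figure D2:**
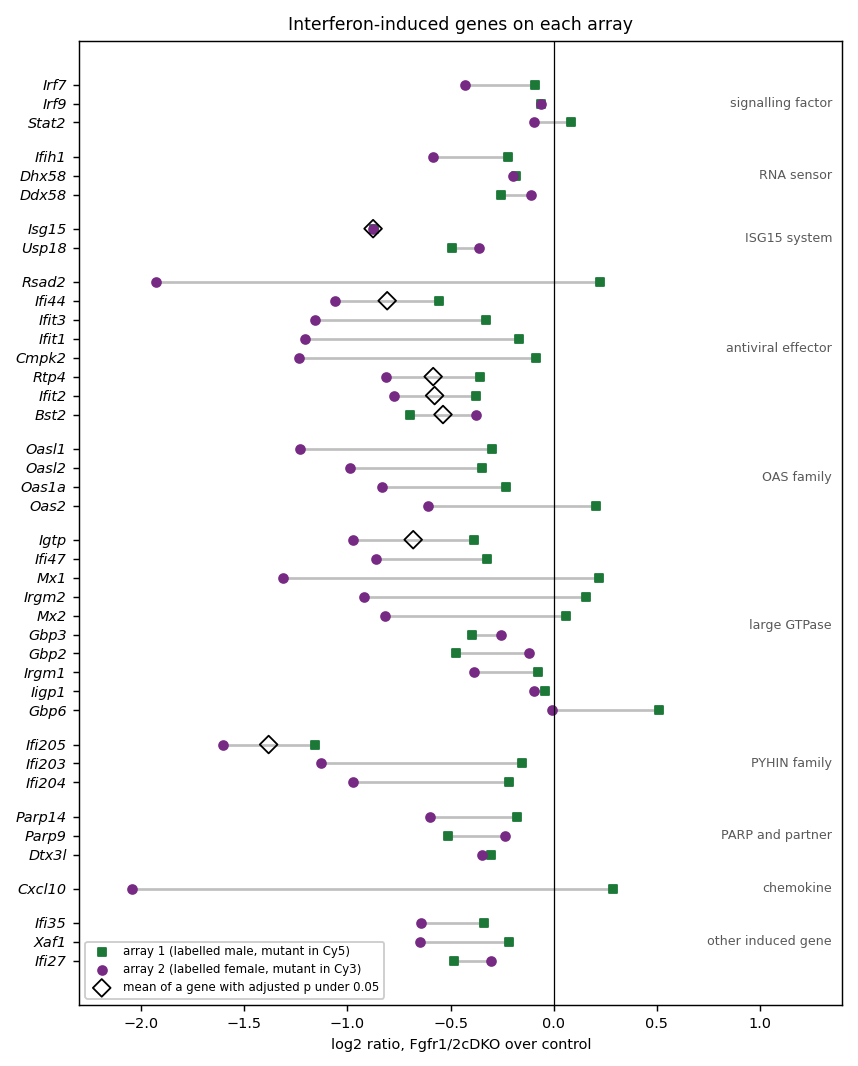
Log2 ratio of Fgfr1/2cDKO over control for each tested interferon-induced gene on array 1 and array 2, 1 gene per line, grouped by role. The median lies at -0.23 on array 1 and at -0.71 on array 2, and on array 2 all 40 ratios are below 0.

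The ISG15 system attaches a ubiquitin-like protein to other proteins. Isg15 encodes that modifier, and its probe lies on chromosome 4 at 155573649 to 155573708 (mm9, minus strand). Its log2 signal was 12.47 and 12.42 in Fgfr1/2cDKO RNA 1 and 2, against 13.35 and 13.29 in control RNA 1 and 2. The groups did not overlap, and the pairs stood nearly equally far apart on both arrays. Isg15 fell by 0.88 on the log2 scale in Fgfr1/2cDKO ureters, 1.84-fold (-0.87 on array 1 and -0.88 on array 2, n = 2; limma adjusted p = 0.0130). A further Isg15 probe gave -0.67 and -0.90. Usp18, the protease that removes ISG15 from proteins and restrains the IFNAR2 receptor, had a log2 ratio of -0.49 on array 1 and -0.36 on array 2 (mean -0.43 ± 0.09, SD, n = 2; adjusted p = 0.0657). Its signals were 10.68 and 10.63 in Fgfr1/2cDKO RNA 1 and 2, against 11.17 and 11.00 in control RNA 1 and 2.

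The PYHIN proteins Ifi203, Ifi204 and Ifi205 carry domains that bind DNA and domains that bind other proteins. Ifi205, with its probe on chromosome 1 at 175942245 to 175942304 (mm9, minus strand), had the lowest ratio of the 40 genes. Its log2 signal was 8.84 and 8.47 in Fgfr1/2cDKO RNA 1 and 2, against 9.99 and 10.08 in control RNA 1 and 2. Both mutant RNAs were more than 1 log2 unit below both controls. Ifi205 fell by 1.38 ± 0.32 on the log2 scale in Fgfr1/2cDKO ureters, 2.61-fold (SD, n = 2; limma adjusted p = 0.00745). Ifi204 had -0.22 on array 1 and -0.97 on array 2 (adjusted p = 0.0873), and Ifi203 had -0.15 and -1.13 (adjusted p = 0.113). The other tested Ifi203 probes gave means of -0.25 and 0.11, so the probes of that gene did not share a direction. The first of these had opposite signs on the arrays, 0.57 on array 1 and -1.06 on array 2. Its mean log2 intensity was 9.51, against 10.30 for the brightest probe, and it was well above background in all 4 RNAs. The second gave 0.49 and -0.26 and was dimmer, at 7.14, which limits what can be read from it. Genes of this family are similar in sequence and lie side by side, so a probe may bind RNA of more than 1 of them.

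The antiviral effectors held 4 of the 7 called genes among their 8 members (50%, against 2.03% of all genes called lower), with a median ratio of -0.67. Ifi44 encodes a cytoplasmic protein whose action is not well understood, and its probe lies on chromosome 3 at 151394035 to 151394094 (mm9, minus strand). Its log2 signal was 8.01 and 7.75 in Fgfr1/2cDKO RNA 1 and 2, against 8.56 and 8.81 in control RNA 1 and 2. Ifi44 fell by 0.81 ± 0.35 on the log2 scale in Fgfr1/2cDKO ureters, 1.75-fold (SD, n = 2; limma adjusted p = 0.0242). Its groups did not overlap.

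The Ifit proteins bind viral RNA and hold back its translation, and Ifit1, Ifit2 and Ifit3 lie together on chromosome 19. The Ifit2 probe, at 34650244 to 34650303 (mm9, plus strand), gave a log2 signal of 8.92 and 8.54 in Fgfr1/2cDKO RNA 1 and 2, against 9.30 and 9.32 in control RNA 1 and 2. Ifit2 fell by 0.58 ± 0.28 on the log2 scale in Fgfr1/2cDKO ureters, 1.49-fold (SD, n = 2; limma adjusted p = 0.0459). Its neighbours had mean ratios further below 0 that did not pass, with a wider gap between the arrays. Ifit3 had -0.33 on array 1 and -1.16 on array 2 (adjusted p = 0.0579), and Ifit1 had -0.17 and -1.21 (adjusted p = 0.106). Ifit1 signals were 9.35 and 8.27 in Fgfr1/2cDKO RNA 1 and 2, against 9.52 and 9.48 in control RNA 1 and 2.

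Bst2 encodes tetherin, which holds budding virus particles at the cell surface. Its probe lies on chromosome 8 at 74058603 to 74058662 (mm9, minus strand). The log2 signal was 11.68 and 11.84 in Fgfr1/2cDKO RNA 1 and 2, against 12.38 and 12.22 in control RNA 1 and 2. Bst2 fell by 0.54 ± 0.23 on the log2 scale in Fgfr1/2cDKO ureters, 1.45-fold (SD, n = 2; limma adjusted p = 0.0481). Unlike most of the 40 genes, its ratio was further from 0 on array 1 (-0.70) than on array 2 (-0.38).

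Rtp4 encodes a receptor transporter protein, and its probe lies on chromosome 16 at 23613668 to 23613727 (mm9, plus strand). The log2 signal was 11.56 and 11.13 in Fgfr1/2cDKO RNA 1 and 2, against 11.91 and 11.95 in control RNA 1 and 2. Rtp4 fell by 0.58 ± 0.32 on the log2 scale in Fgfr1/2cDKO ureters, 1.5-fold (SD, n = 2; limma adjusted p = 0.0491). Bst2 and Rtp4 stood closest to the threshold of the called genes.

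Rsad2 and Cmpk2 are neighbours on chromosome 12, encoding viperin, which makes a nucleotide that stops viral RNA synthesis, and a mitochondrial nucleotide kinase. Rsad2 signals were 10.40 and 8.47 in Fgfr1/2cDKO RNA 1 and 2, against 10.18 and 10.40 in control RNA 1 and 2. Only mutant RNA 2 stood apart, and the Rsad2 ratio was 0.22 on array 1 and -1.93 on array 2 (mean -0.85 ± 1.52, SD, n = 2; limma adjusted p = 0.236). Cmpk2 had -0.09 on array 1 and -1.24 on array 2 (adjusted p = 0.137), and its other tested probe gave 0.09 and -0.64.

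Cxcl10, a chemokine that draws T cells and NK cells through the receptor CXCR3, showed the widest gap between the arrays of the 40 genes at its brightest probe. Its probe lies on chromosome 5 at 92775781 to 92775840 (mm9, minus strand). Signals were 12.19 and 10.37 in Fgfr1/2cDKO RNA 1 and 2, against 11.90 and 12.41 in control RNA 1 and 2. The ratio was 0.29 on array 1 and -2.04 on array 2 (mean -0.88 ± 1.65, SD, n = 2; limma adjusted p = 0.254). At this probe the mutant RNAs differed from each other by more than the controls did. The other tested Cxcl10 probe, at 92776616 to 92776675, gave -0.13 on array 1 and -0.07 on array 2. That probe was much dimmer, with a mean log2 intensity of 7.77 against 11.71, which limits what can be read from it. The gap between the arrays was thus seen at 1 probe. The mean over both probes was -0.49.

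The large GTPases fall into 3 families. Immunity-related GTPases (Igtp, Irgm1, Irgm2, Iigp1, Ifi47) and guanylate-binding proteins (Gbp2, Gbp3, Gbp6) act on the vacuoles of intracellular microbes, and Mx proteins act on viral nucleocapsids. Of the 10, 1 was called lower, Igtp (10%, against 2.03% of all genes), and the median ratio of the 10 was -0.35. The Igtp probe, on chromosome 11 at 58020927 to 58020986 (mm9, plus strand), gave a log2 signal of 11.36 and 10.74 in Fgfr1/2cDKO RNA 1 and 2, against 11.74 and 11.72 in control RNA 1 and 2. Igtp fell by 0.68 ± 0.42 on the log2 scale in Fgfr1/2cDKO ureters, 1.60-fold (SD, n = 2; limma adjusted p = 0.0448).

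The other GTPases of this class did not pass. Ifi47 came nearest, at -0.33 on array 1 and -0.86 on array 2 (limma adjusted p = 0.0562). Irgm2, with the same 22 bases around its core as Igtp, had 0.16 on array 1 and -0.92 on array 2 (adjusted p = 0.327). Irgm1 had -0.07 on array 1 and -0.39 on array 2 and Iigp1 had -0.04 and -0.09. Mx1, the nuclear Mx protein of the mouse, had 0.22 and -1.31 (adjusted p = 0.294), and the cytoplasmic Mx2 had 0.06 and -0.82 (adjusted p = 0.261).

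Gbp2 had -0.47 on array 1 and -0.12 on array 2. Its neighbour on chromosome 3, Gbp3, had -0.40 and -0.25, and both were further from 0 on array 1. Gbp6 on chromosome 5 was the single gene of the 40 with a mean above 0. Its signals were 11.09 and 11.78 in Fgfr1/2cDKO RNA 1 and 2, against 10.58 and 11.79 in control RNA 1 and 2. Array 2 was higher than array 1 in both genotypes, and the ratio was 0.51 on array 1 and -0.01 on array 2 (mean 0.25 ± 0.37, SD, n = 2; limma adjusted p = 0.320). The other Gbp6 probe gave -0.47 and -0.71, so the direction of Gbp6 depends on the probe. Guanylate-binding protein genes are near copies of each other, and these probes may bind RNA of several.

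The OAS enzymes make oligoadenylates that switch on RNase L, and Oasl1 and Oasl2 are OAS-like relatives. None of the 4 tested genes passed at the adjusted p, with a median ratio of -0.60. At an unadjusted p below 0.05, 3 were lower, against 11.4% of all genes. Oasl2 had -0.35 on array 1 and -0.99 on array 2 (limma adjusted p = 0.0512), just outside the threshold. Oasl1 had -0.30 and -1.23 (adjusted p = 0.0654) and Oas1a -0.23 and -0.83 (adjusted p = 0.0836). Oas2 had opposite signs, with 0.20 on array 1 and -0.61 on array 2 (adjusted p = 0.530).

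The cytoplasmic RNA sensors stood closer to 0. Ifih1, which encodes MDA5, had -0.22 on array 1 and -0.59 on array 2 (mean -0.40 ± 0.26, SD, n = 2; limma adjusted p = 0.106). Dhx58, which encodes LGP2, had -0.19 and -0.20 (adjusted p = 0.315), and Ddx58, which encodes RIG-I, had -0.26 and -0.11 (adjusted p = 0.35), with -0.37 and -0.28 at its other probe. None of the 3 passed, and 1 had an unadjusted p below 0.05, where 4955 of all 22070 genes did.

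The ADP-ribosylation genes were all lower at an unadjusted p below 0.05, against 11.4% of all genes, and 0 of the 3 passed the adjusted threshold. Parp9 and Dtx3l, partners in ADP-ribosylation and ubiquitination, had -0.51 and -0.23 (Parp9) and -0.30 and -0.35 (Dtx3l) on arrays 1 and 2. Parp14, an ADP-ribosyltransferase, had -0.18 and -0.60 (limma adjusted p = 0.126). The other Dtx3l probes gave 0.02 and -0.03 and were much dimmer, with mean log2 intensities of 6.87 and 6.90 against 10.94. This limits what can be read from them, and the Dtx3l value is that of 1 probe of 3. The genes without a shared role also missed the threshold. Ifi27, a small mitochondrial protein, had -0.48 on array 1 and -0.30 on array 2 (limma adjusted p = 0.0848). Ifi35 had -0.34 and -0.65 (adjusted p = 0.0587) and Xaf1, a partner of the apoptosis inhibitor XIAP, had -0.21 and -0.65 (adjusted p = 0.103), with -0.16 and -0.27 at its other probe.

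The signalling factors among the 40 did not differ at the threshold. Stat2 and Irf9, which encode parts of ISGF3, had ratios of -0.01 ± 0.12 and -0.06 (SD, n = 2; limma adjusted p = 0.983 and 0.770). Stat2 had 0.08 on array 1 and -0.09 on array 2, and Irf9 gave -0.06 on both. Irf7, the factor that raises interferon genes during infection, had -0.09 on array 1 and -0.43 on array 2 (adjusted p = 0.242). The median of these 3 genes was -0.06, the nearest to 0 of the role groups with more than 1 gene.

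The arrays differed more for these genes than for most. The median SD between the arrays was 0.31 log2 over the 40 genes, against 0.111 over all genes, while the 4 spots of a probe scattered by a median SD of 0.0438 and 0.0383 on the arrays, against 0.0529 and 0.0508 over all probes. The ratio was lower on array 2 than on array 1 in 32 of 40 genes (80%), against 45.3% of all genes. At least a 2-fold lower ratio was seen for 1 gene on array 1 (2.5%, against 0.186% of all genes) and for 10 on array 2 (25%, against 0.603%). The 10 were Oasl1, Ifi203, Ifi205, Cmpk2, Ifi44, Ifit1, Ifit3, Rsad2, Cxcl10 and Mx1.

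In the separate channels the mutant RNAs differed from each other by more than the control RNAs did. The RNAs of a genotype also differ in dye and array, so these differences cannot be told apart from dye and array effects. Fgfr1/2cDKO RNA 2 gave the lowest of the 4 signals in 34 of 40 genes (85%), against 30.8% of all genes. The median difference of Fgfr1/2cDKO RNA 2 from RNA 1 was -0.38, while that of control RNA 2 from RNA 1 was -0.01. Over all genes these medians were 0.02 and 0.01. The highest signal came from control RNA 1 in 19 genes (47.5%, against 32.1% of all genes) and from control RNA 2 in 17 (42.5%, against 20.3%). Compared within a dye, and so across the arrays, Fgfr1/2cDKO RNA 1 stood a median of 0.24 below control RNA 2 in Cy5 (-0.24). In Cy3, Fgfr1/2cDKO RNA 2 stood further below control RNA 1 (-0.70). Fgfr1/2cDKO RNA 2 gave the highest signal in 0 of the 40 genes, against 33.8% of all genes.

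**Figure D3:**
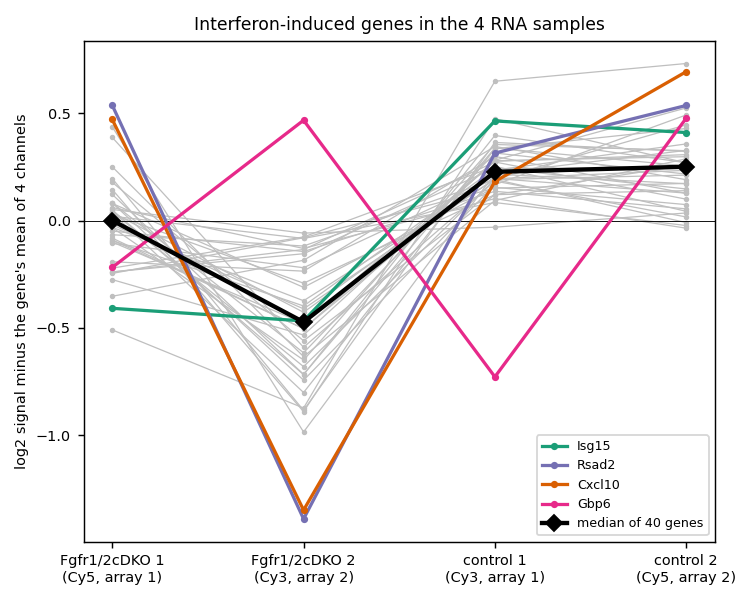
Log2 signal of each tested interferon-induced gene in Fgfr1/2cDKO RNA 1 and 2 and control RNA 1 and 2, as the difference from the gene's own mean, 1 line per gene with 4 genes in colour. Fgfr1/2cDKO RNA 2 is the lowest of the 4 in 34 of 40 genes, and Cxcl10 and Rsad2 are low there alone, while Isg15 is low in both mutant RNAs.

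**Figure D4:**
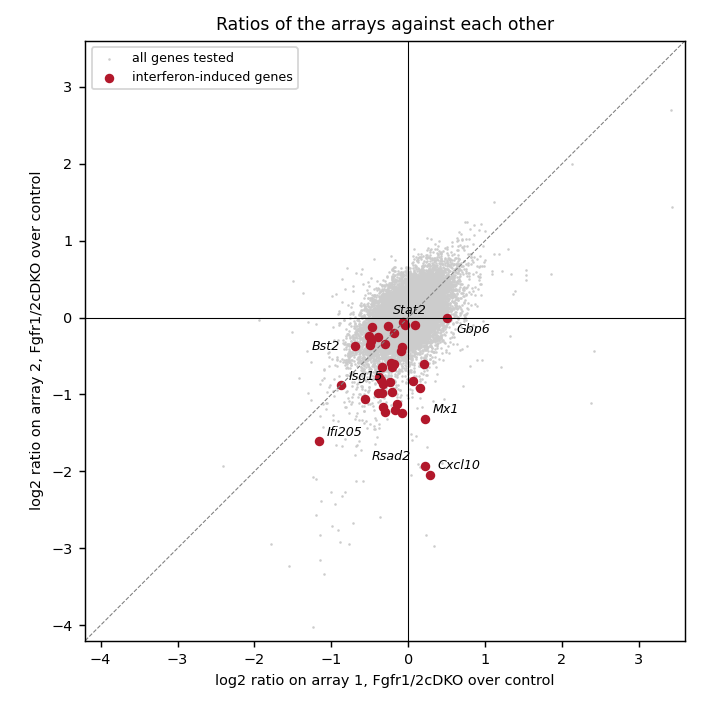
Log2 ratio of Fgfr1/2cDKO over control on array 1 (x axis) against array 2 (y axis) for all 22070 genes tested (grey) and the 40 interferon-induced genes (red), with the dashed line at equal ratios. The interferon-induced genes lie below 0 on array 2, and 32 of 40 lie below the dashed line.

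The genes of the pathway outside the 41 were taken from lists of genes with known functions. These lists, like the 41 genes, were chosen with earlier results of these data known, so their shares are descriptions. Of 11 tested interferon genes, 0 passed the adjusted threshold and 1 an unadjusted p below 0.05 (limma), with a median ratio of -0.07. That gene was Ifnl3, a type III interferon, at -0.35 ± 0.13 (SD, n = 2; adjusted p = 0.112). The alpha interferons Ifna12 and Ifna5 followed by p, with means of -0.21 and -0.12. Ifnb1, Ifng, Ifne and Ifna4 were not well above background in either genotype, and alpha interferon genes are near copies of each other that a probe may not separate. Of 20 receptor, kinase and transcription factor genes, 0 passed and 4 reached an unadjusted p below 0.05, with a median of -0.03. Of all 22070 genes, 4955 reached it, and neither these genes nor the interferon genes exceeded that share. Ifnar2 had -0.31 ± 0.05 (adjusted p = 0.141) and Ifnar1 0.06. Irf2, which represses interferon target genes, had 0.35 ± 0.04 (adjusted p = 0.106), and the lambda interferon receptor Ifnlr1 had 0.31 ± 0.17 (adjusted p = 0.157).

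Among 19 nucleic acid sensors and adaptors, 1 was lower (5.26%, against 2.03% of all genes) and 0 were higher, with a median of -0.07. That gene was Tlr7, the endosomal receptor for single-stranded RNA that is carried by macrophages and plasmacytoid dendritic cells, which fell by 0.59 ± 0.24 (SD, n = 2; limma adjusted p = 0.0391). Of 57 other interferon-induced genes, 6 were lower (10.5%, against 2.03% of all genes) and 0 higher, with a median of -0.18. They were Phf11d at -0.91 ± 0.19 (adjusted p = 0.0136), Lgals9 at -0.76 ± 0.21 (adjusted p = 0.0213), Ifitm1 at -0.72 ± 0.02 (adjusted p = 0.0188), Gbp11 at -0.59 ± 0.18, Ifi27l2a at -0.57 ± 0.13 and Gbp9 at -0.56 ± 0.10. Lgals9 encodes galectin-9 and Ifitm1 a membrane protein that blocks virus entry. Unlike Rsad2 and Cxcl10, Ifitm1 gave nearly the same ratio on both arrays, -0.71 and -0.74.

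Ratios were also set against the promoter letters. The 17 tested genes with the response element core had a median ratio of -0.54 (-0.23 on array 1 and -0.88 on array 2), and 4 of them were called lower. The 11 tested genes with a promoter entry and no such core had a median of -0.58 (-0.30 and -0.78). Of them, 2 were called lower, where 2.03% of all genes were. The 12 genes with no promoter entry had a median of -0.385, and 1 of them was called lower. Single ratios ran from -1.38 to -0.01 with the core and from -0.81 to -0.06 without it, so the sets overlapped widely. Ifi44 is among the genes without it, and its 250 bases before the start begin with a long GAA repeat. Nearer the start they hold ttttcgtttc, which misses the core on the opposite strand by a single base. Only exact matches were counted, so genes without the core may hold close variants of it. The promoters of Ifi205, Isg15, Ifi44 and Igtp, the called genes with the largest mean ratios in size, are given whole, with the core in capitals.
Ifi205, chr1:174031756-174032005, minus strand: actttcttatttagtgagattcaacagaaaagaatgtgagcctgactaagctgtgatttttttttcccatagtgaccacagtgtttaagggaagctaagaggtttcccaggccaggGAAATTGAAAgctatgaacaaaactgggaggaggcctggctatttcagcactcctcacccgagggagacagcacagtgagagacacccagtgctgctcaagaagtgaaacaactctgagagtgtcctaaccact
Isg15, chr4:156200819-156201068, minus strand: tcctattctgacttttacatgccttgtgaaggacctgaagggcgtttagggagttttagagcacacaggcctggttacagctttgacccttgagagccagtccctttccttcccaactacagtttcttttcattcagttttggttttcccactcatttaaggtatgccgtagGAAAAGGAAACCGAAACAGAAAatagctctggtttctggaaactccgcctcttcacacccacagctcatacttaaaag
Ifi44, chr3:151749911-151750160, minus strand: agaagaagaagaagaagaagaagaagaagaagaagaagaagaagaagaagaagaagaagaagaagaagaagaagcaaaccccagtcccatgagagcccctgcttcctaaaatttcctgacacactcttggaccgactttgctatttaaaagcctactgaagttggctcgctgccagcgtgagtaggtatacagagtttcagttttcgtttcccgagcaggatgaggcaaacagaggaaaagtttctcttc
Igtp, chr11:58199306-58199555, plus strand: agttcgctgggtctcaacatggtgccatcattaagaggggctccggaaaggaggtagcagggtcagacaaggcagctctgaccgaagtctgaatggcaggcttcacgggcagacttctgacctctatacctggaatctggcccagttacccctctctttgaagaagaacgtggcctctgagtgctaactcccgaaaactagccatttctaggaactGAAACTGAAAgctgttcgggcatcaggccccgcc
Dhx58, Gbp6, Ifi204, Ifi27, Iigp1, Mx1, Mx2, Oas2, Parp14, Parp9, Rtp4 and Usp18 were not analysed here in this way, and their promoters are not shown.

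Markers of other cell types that can hold these transcripts were read on the same arrays, where 2.03% of all genes were called lower and 1.76% higher. Of 14 macrophage genes, 4 were called lower in Fgfr1/2cDKO ureters (Mrc1, Fcer1g, Cd14 and C1qa) and 0 higher, and all 14 were measured well above background. Their median ratio was -0.22 on array 1 and -0.66 on array 2, and 11 were below 0 on both arrays. Cx3cr1 was above 0 on both (0.46 and 0.11), and Adgre1 (0.04 and -0.71) and Lyz2 (0.15 and -0.93) had opposite signs. The summed signal of the 14 genes was 127700 and 83950 in Fgfr1/2cDKO RNA 1 and 2, against 154900 and 122800 in control RNA 1 and 2. Each mutant sum was below the control sum of its own array, and mutant RNA 1 lay above control RNA 2. Of 9 endothelial genes, 7 were lower, with a median of -0.62 on array 1 and -0.49 on array 2 and summed signals of 4612 and 4769 in Fgfr1/2cDKO RNA, against 7102 and 6432 in control RNA. These sums did not overlap between the genotypes. All 6 tested fat cell genes were lower, with a median of -1.15 on array 1 and -2.88 on array 2. Their summed signal was 30520 and 6562 in Fgfr1/2cDKO RNA 1 and 2, against 68100 and 56260 in control RNA 1 and 2. The macrophage and fat cell lists, like the interferon-induced genes, were further below 0 on array 2. The fibroblast list (median -0.10 on array 1 and -0.32 on array 2) and the neutrophil list (0.01 and -0.19) were also lower on array 2. The remaining cell type lists were not lower on array 2. The part of these cell types in the result was not tested.

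Of 5 genes listed for plasmacytoid dendritic cells, 2 were lower (Ly6d and Cd209d), with a median of -0.09, and Siglech had 0.08. Their summed signal was 48780 and 42070 in Fgfr1/2cDKO RNA 1 and 2, against 57890 and 43070 in control RNA 1 and 2. Most of each sum came from Siglech, whose log2 signal ran from 14.97 to 15.35. Ly6d was also bright, at 12.03 to 13.87. Which cells held these RNAs was not tested, so the list is no measure of plasmacytoid dendritic cells. Of 10 T, NK and B cell genes, 5 did not pass the filter on dim spots, Cd3g, Cd8a, Klrb1c and Ncr1 among them, and 0 of the other 5 were called (1 at an unadjusted p below 0.05). Of 5 tested neutrophil genes 1 was lower (Camp), with a median of -0.21, and of 7 fibroblast genes 2 were lower (Dpt and Postn), with a median of -0.21. The neutrophil gene Mpo (0.09 on array 1 and 0.38 on array 2) and the fibroblast gene Col1a1 (0.21 and 0.67) were above 0 on both arrays, and neither was called.

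**Figure D5:**
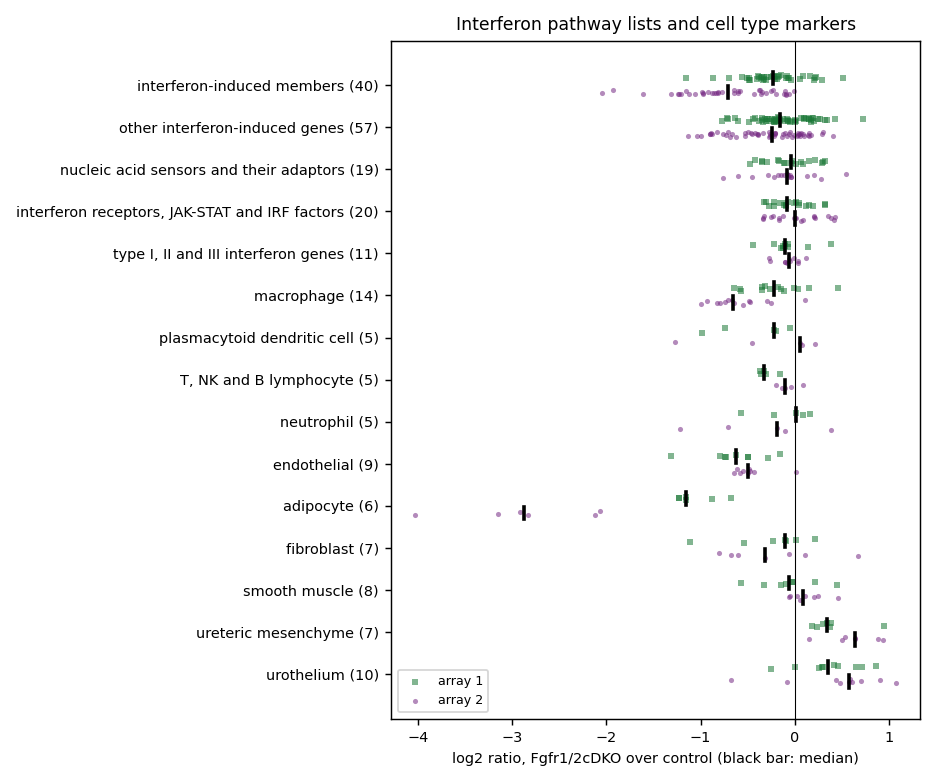
Median log2 ratio of Fgfr1/2cDKO over control on array 1 and array 2 for the interferon-induced genes, the other lists of the pathway and the cell type marker lists. The interferon-induced genes, macrophage genes and fat cell genes lie further below 0 on array 2 than on array 1, at -0.71, -0.66 and -2.88. The fibroblast, neutrophil, other interferon-induced and nucleic acid sensor lists also lie lower on array 2, by less, and the remaining lists do not.

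The tissue and genotype labels were read on the same arrays. All tested markers of ureteric mesenchyme, smooth muscle and urothelium were well above background, with medians of 0.49, -0.01 and 0.45. Of 7 mesenchyme genes 2 were called higher in Fgfr1/2cDKO ureters (Sox9 and Foxf1), and of 10 urothelium genes 4 (Upk1a, Cdh1, Krt18 and Upk3b), against 1.76% of all genes. Of 8 smooth muscle genes 0 were called, and 0 of these lists' genes were called lower. An unadjusted p below 0.05 was reached by 6 mesenchyme genes, 9 urothelium genes and 1 smooth muscle gene. Of all 22070 genes, 4955 reached it, and the smooth muscle list did not exceed that share. Of the urothelium genes, 1 of those 9 was lower, Krt5, at -0.25 on array 1 and -0.68 on array 2 (limma adjusted p = 0.0833). Epcam had a mean of -0.04. Of the targeted genes, Fgfr1 had -0.33 ± 0.15 (SD, n = 2; limma adjusted p = 0.134) and Fgfr2 rose by 0.56 ± 0.02 (adjusted p = 0.0309). The sources used here do not name the floxed exons, and probes outside the deleted part check neither genotype nor labels. Both arrays lay on 1 slide and in 1 scan, and 70.3% to 78.3% of gene spots per channel stood well above background.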

How the data were processed

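Total RNA, 150 ng per labelling, was hybridised in both dyes on 2 Agilent arrays with the dyes swapped, per the labels. Per the submitters' processing notes the scans were read with Agilent Feature Extraction 10.7.3.1. The deposited scanner files hold intensity values per spot, and log10 ratios of red over green from processed signals, per the file headers. The flags for background, saturation and outliers are the software's own, per the file headers. Each probe also has 1 score in a table the authors deposited, in the form of a fold change with a sign and with a median of 1 on both arrays. On array 1, 8097 probes stood at exactly 1, and on array 2, 9100, for a reason that is unknown. The sources used here do not give its centring or its way of averaging spots. Its direction was read from its correlation with the scanner ratios across probes, 0.844 on array 1 and -0.848 on array 2.

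Mean and background signals were corrected by normexp (offset 50) and loess in limma 3.58.1 (R 4.3.3), with control, filler and outlier spots at weight 0. The 4 spots of each probe were averaged, no gene spot being saturated, and the brightest probe stood for its gene. Probes entered the test where over 0.5 of their spots exceeded background on each array in 1 or both genotypes. The labelled dyes gave each ratio's direction, mutant over control. Two-sided tests against 0 used lmFit and eBayes, adjusted by Benjamini-Hochberg over 22070 genes, with 1 residual degree of freedom and 7.45 from the prior. Separate channels were scaled between arrays with Aquantile. The fit was also run on data simulated from its own variance model, which checks the code and not the calls made here. The 2 arrays limit the precision.

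The members and lists were chosen with earlier results of these data known. All members are named, and of the other pathway lists the called genes or else the 3 with the smallest p. Promoters shown are those of the 4 called members with the largest ratios that have an entry. Ifnar1, the marker genes and the dim interferon genes were named after their values were seen. Symbols were updated through a RefSeq table of a later assembly, and probe coordinates are mm9, per the file headers. No mm9 annotation of exons or UTRs was used here. Alternatives covered the background correction, normalisation, filter, probe rule, variance model, separate channels, threshold, the authors' table and each array left out.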

Additional observations from a re-analysis of the deposited data

Results flagged for a closer look

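For 8 of the 40 tested interferon-induced genes (20%), against 33.5% of all genes, the log2 ratio of Fgfr1/2cDKO over control had opposite signs on the array labelled male (array 1) and the array labelled female (array 2). With 1 array per sex label the difference was not tested, and sex label, dye orientation and replicate cannot be told apart. Cxcl10 had 0.29 on the male array and -2.04 on the female array, and Rsad2 had 0.22 and -1.93. The other tested Cxcl10 probe, which was much dimmer, had the same sign on both, at -0.13 and -0.07. The Mx genes had 0.22 and -1.31 (Mx1) and 0.057 and -0.82 (Mx2). Irgm2 had 0.16 on the male array and -0.92 on the female array, and Oas2 had 0.20 and -0.61. Smaller differences were seen in Stat2, at 0.083 and -0.094, and in Gbp6, at 0.51 and -0.0096.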

How the results depend on the processing

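The direction of these genes held under most settings, and the number called did not. The median log2 ratio of the interferon-induced genes was -0.46, ran from -0.67 to -0.41 over the processing alternatives, and was -0.71 without replicate 1 and -0.23 without replicate 2. With median centring the median of all genes moved to -0.14, so the -0.67 seen there is to be read against it. Below 0 were 39 or 40 of 40 genes in every processing alternative, and 32 on array 1 alone (80%). Over all genes of the main setting, 55% were below 0 on array 1 and 50.4% on array 2. The alternatives reprocess the same 2 arrays and add no replicates. Gbp6 turned to -0.17 as the mean over its probes, which differ in direction.

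Called interferon-induced genes numbered 7, and 0 with Agilent's processed signals (26 at an unadjusted p below 0.05), 0 with median centring (29), 0 with a trended robust variance (25), 2 in the authors' value table (0.77%), 3 with no filter (2.38% of all genes called), 11 with the mean over probes (4.37%), 12 with a normexp offset of 16 (5.39%), 12 with probes well above background in all 4 channels (5.32%), 17 with plain subtraction (7.42%) and 16 at an adjusted p below 0.1 (8.64%), all lower. Over the whole array the 836 calls became 10 (processed signals), 0 (median centring, 5584 unadjusted), 0 (trended robust variance, 5099 unadjusted), 170 (authors' table), 1637 (plain subtraction) and 1907 (adjusted p below 0.1). The 7 calls in the other lists of the pathway became 0 (processed signals, 30 unadjusted), 0 (median centring, 48), 0 (trended robust variance, 36), 1 (authors' table), 11 (plain subtraction) and 16 (adjusted p below 0.1). The causes were not tested. With the filler spots kept in the loess curve, chosen after seeing the data, 5 interferon-induced genes were called.

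A ratio within an array pairs its 2 RNAs. Fitted as separate channels with no replicate block, 0 interferon-induced genes (22 unadjusted), 0 other pathway genes (24) and 3 genes of the whole array were called. Over 10 processing alternatives at the same threshold, Isg15 and Ifi205 were called in 6 each, with adjusted p from 0.00104 to 0.156 and from 4.43e-05 to 0.221. Ifi44 was called in 5 (0.00147 to 0.238), and Igtp (0.013 to 0.355), Ifit2 (0.0143 to 0.325), Bst2 (0.0262 to 0.304) and Rtp4 (0.0219 to 0.335) in 4 each. Dim probes such as that of Oas3 limit what can be read.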
